A study of Mus musculus with 12 samples.

Results

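The comparison described here set RAW264.7 cells with a knockout (KO) of Parp14 against wild-type (WT) cells of the same line, both after lipopolysaccharide (LPS). It used 4 of the 12 libraries of the series, 2 of WT cells with LPS and 2 of KO cells with LPS, grouped by the genotype and treatment in the sample labels. RAW264.7 is a mouse macrophage line, labelled as of strain BALB/c. The KO cells carry the genotype Parp14 -/- in the labels, LPS was given for 2 h, and the 6 groups of 2 libraries were KO cells without and with LPS, and WT cells without either agent, with LPS, with a Jak inhibitor and with LPS plus inhibitor. The RNA was sequenced as mRNA libraries from bulk cells, and the question was which genes differ in level between KO and WT cells once LPS has been given. The sources used here do not state how the KO was made, the part of the gene it removes, the number of KO clones, or the name and dose of the inhibitor. A difference due to the loss of Parp14 and one between cell clones therefore cannot be told apart. The labels name no separate cultures either, so a p-value reflects just the variation from one library to another, which may be technical. In bulk RNA, fewer cells with a transcript and less of it per cell cannot be told apart.

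PARP14 is a large macrodomain protein that attaches single ADP-ribose units to other proteins, and its gene is itself induced by interferon. In macrophages LPS is sensed by TLR4. Within the first hours this leads, through NF-kB and MAP kinases, to inflammatory cytokines, and through IRF3 to interferon-β, which is secreted and acts back on the cells. Interferon-β binds the receptor IFNAR, Jak kinases pass the signal to STAT factors and IRF9, and these bind interferon-stimulated response elements (ISREs) in front of interferon-stimulated genes.

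Levels are given as read counts scaled to a fixed total of gene reads (CPM) in each library, replicate 1 before replicate 2. A difference is the fitted difference of mean log2(CPM + 1), KO minus WT unless other groups are named, with its standard error (SE). The added 1 CPM makes it smaller than the log2 ratio in genes of a few CPM. A gene was called higher or lower at an adjusted p under 0.05 in limma, a linear model fitted over all 10899 tested genes and all 12 libraries with the replicate number as a block.

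After LPS, 1623 genes were called higher in KO cells (14.9% of those tested) and 1815 lower (16.7%). The counts after LPS of every gene list below are to be read beside these shares. Most called differences were small, with a median absolute value of 0.33. At least 2-fold differences numbered 101 higher (0.927%) and 117 lower (1.07%). The libraries of the 2 groups did not overlap in 5381 genes (49.4%), called or not. Without the replicate block 675 genes (6.19%) were called higher and 835 (7.66%) lower, and all 1510 of these were also called with it. With the CPM as deposited, scaled over all alignments, 1072 were higher and 2621 lower, against a median shift of all genes of -0.05. The median difference of all tested genes was 0.0015 in the scaling used here. Libraries held 35.9 to 45.7 M gene reads. The Pearson correlation between replicates across genes was 0.9966 for WT with LPS and 0.996 for KO with LPS. Macrophage markers summed to 17850 and 17180 CPM in WT against 17450 and 18620 CPM in KO libraries, with Csf1r, the CSF-1 receptor, at 1259, 1253, 1195 and 1198 CPM. The sum does not show single markers to be level, as 10 of 29 tested were called higher and 13 lower. Its largest member, Lyz2, read 8389 and 8267 against 6051 and 7257 CPM. Lyz1 read 1754 and 1540 against 4163 and 4174 CPM, and values of these near-identical copies are uncertain. Marco and the phagocytic receptor Mertk were at or near 0 in all 4. Summed markers of lymphocytes (0.81 to 0.98 CPM), neutrophils (0.34 to 0.66 CPM) and stromal, epithelial or endothelial cells (0.088 and 0.098 CPM in WT, 0.50 and 0.40 CPM in KO) were below 1 CPM, with Cd3e, S100a9, Epcam and Col3a1 at 0 reads. Dendritic cell markers summed to 38.9 and 46.7 CPM in WT against 32.7 and 42.4 CPM in KO libraries, with Cd209a at 0, and 1 of 5 tested, Xcr1, was lower (-0.32), a call lost without the block.

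**Figure D1:**
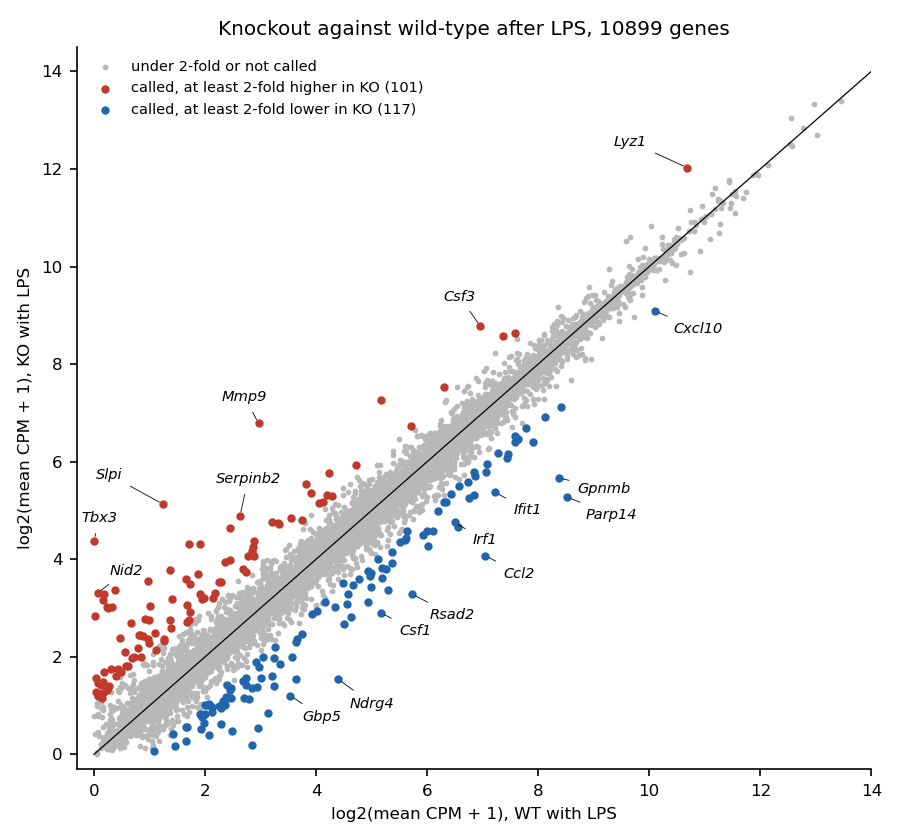
Mean level of each of the 10899 tested genes in WT cells with LPS (x axis) and KO cells with LPS (y axis), both as log2 of the mean CPM plus 1. Coloured points are the 101 genes called at least 2-fold higher and the 117 called at least 2-fold lower in KO cells, where the fold is that of CPM + 1. The cloud follows the diagonal, with Parp14, Ccl2, Rsad2 and Gpnmb far below it and Tbx3, Slpi and Mmp9 far above.

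Parp14 itself lies on the minus strand of chromosome 16 (chr16:35832874-35871544, GRCm38). Its level was 315 and 419 CPM in WT libraries with LPS and 34.9 and 40.5 CPM in KO libraries with LPS. Both KO libraries lay far below both WT libraries, and the KO mean was 10.3% of the WT mean (difference -3.24, SE 0.058, limma adjusted p = 1.1e-13). Reads from any exon of the gene are counted, so the remaining level does not say whether protein is made. In untreated cells the levels were 76.4 and 99.7 CPM in WT against 10 and 11.97 CPM in KO libraries, so the LPS response of the transcript was present in both genotypes (2.04 in WT, 1.69 in KO). Of 22 ADP-ribosyltransferase and ADP-ribose hydrolase genes tested, 8 were lower, Parp14 included, and 2 higher. Among all genes 16.7% were lower and 14.9% higher. Of the 22, 6 were lower and 1 higher without the block, and their median was -0.13. The lower ones included Dtx3l and Parp9, whose products form an E3 ligase complex and whose genes neighbour Parp14 on chromosome 16 (chr16:35926511-35939151 and chr16:35938470-35972605). Dtx3l read 78.6 and 92.3 CPM in WT against 35.4 and 43.8 CPM in KO cells (difference -1.10, SE 0.067), and Parp9 read 85.6 and 92.8 against 48.7 and 53.0 CPM (-0.80, SE 0.048). In untreated cells the differences of Dtx3l and Parp9 were -0.19 and -0.30. In WT cells with LPS the Jak inhibitor changed them by -1.59 and -0.84. These 2 genes overlap each other, and the sources used here do not state whether strand was used in counting. Parp10 (-0.67), Parp12 (-0.65) and Tiparp (-0.59), all mono-ADP-ribosyltransferases, were lower by smaller amounts, while Parp1, which makes poly-ADP-ribose in the nucleus, was lower by 0.18, a call lost without the block (adjusted p = 0.37).

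Interferon-stimulated effectors were lower in KO cells as a group. Of 85 tested, 71 were called lower and 3 higher (57 and 1 without the block), and their median difference was -0.73 beside 0.0015 for all genes. Rsad2, which encodes the antiviral enzyme viperin, read 48.6 and 54.8 CPM in WT against 7.01 and 10.6 CPM in KO cells. Neither KO library came near a WT one, and the WT mean was 5.87 times the KO mean (difference -2.45, SE 0.10, limma adjusted p = 4.6e-10). Its neighbour on chromosome 12, Cmpk2, a mitochondrial nucleotide kinase, read 36.5 and 39.6 against 8.43 and 10.2 CPM (-1.93, SE 0.072). Ifit1, Ifit2 and Ifit3, whose products bind viral RNA or one another, form a cluster on chromosome 19. Ifit1 read 143 and 155 CPM in WT against 37.1 and 43.7 CPM in KO cells (-1.86, SE 0.080). Ifit2 read 21.6 and 25.7 against 4.65 and 7.51 CPM (-1.83, SE 0.13), and Ifit3 5.41 and 5.61 against 1.17 and 1.29 CPM (-1.55, SE 0.11). In each of the 3 both KO libraries lay far below both WT libraries, and groups without overlap were found in 49.4% of all tested genes. The genes Mx1 and Mx2, of the dynamin-like GTPase family, were lower as well. Their transcript levels do not say whether a working protein is made. Mx2 read 67.6 and 69.0 CPM in WT against 20.8 and 25.1 CPM in KO cells (-1.54, SE 0.10). Mx1 was scarce, at 4.69 and 3.36 against 0.97 and 1.31 CPM (-1.22, SE 0.15). Isg15, the ubiquitin-like modifier, read 172 and 208 CPM in WT against 78.7 and 89.3 CPM in KO cells (-1.17, SE 0.12), and Usp18, which removes it and also damps IFNAR signalling, 98.2 and 117 against 31.3 and 42.8 CPM (-1.52, SE 0.072).

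The effectors did not all follow. Oasl1, an inhibitor of Irf7 translation, read 491 and 571 CPM in WT against 508 and 584 CPM in KO cells, overlapping ranges with a difference of 0.04 (SE 0.081). Slfn4 was higher, at 207 and 186 CPM in WT against 309 and 286 CPM in KO cells (0.60, SE 0.077), and Ifitm3 and Ifitm6 were higher by 0.18 each, calls lost without the block (adjusted p = 0.13 and 0.39). The other 10 effectors without a call, Ly6e, Nmi, Sp140, Sp110, Slfn2, Slfn3, Parp11, Nt5c3, Tnfsf10 and Ifi27l2a, had differences between -0.21 and 0.04. Genes of the Ifit, Slfn, Gbp, Ifi200, Oas, H2, Bcl2a1 and Lyz families have near-identical copies, and reads with several positions were not counted, so values of single members are uncertain.

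All tested interferon-inducible GTPases but one were lower. These proteins, the guanylate-binding proteins and the immunity-related GTPases, attack the vacuoles of intracellular microbes. Of 8 tested, 7 were called lower with and without the block, the median was -1.32, and 10 more listed genes were too low to test. Gbp5, which promotes inflammasome activation, read 9.59 and 11.6 CPM in WT against 1.28 and 1.33 CPM in KO cells (difference -2.33, SE 0.11, limma adjusted p = 2.7e-09), with the WT mean 8.12 times the KO mean. Irgm1 was the most abundant, at 167 and 178 against 58.3 and 73.8 CPM (-1.38, SE 0.060). Gbp7 (-1.60), Gbp3 (-1.57), Gbp2 (-1.26), Irgm2 (-1.21) and Igtp (-1.19) were lower as well. Ifi47 stood apart, with 6.70 and 7.07 CPM in WT against 8.24 and 7.09 CPM in KO cells.

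The promoters of several of these genes carry the ISRE core, searched as a pair of GAAA runs with any 2 bases between them. The windows below hold the 250 bases before the most upstream RefSeq start of each gene (GRCm38.p6), 5′ to 3′ on the gene's strand, and are shown to set 4 genes of the interferon group beside Csf1, a gene that was lower without being a classical interferon target. Capitals mark every match to the ISRE core on either strand, so TTTC runs are the reverse complement. The windows are chr12:26456453-26456702 for Rsad2 (minus strand), chr19:34640639-34640888 for Ifit1 (plus), chr3:142496684-142496933 for Gbp5 (plus), chr11:48871421-48871670 for Irgm1 (minus) and chr3:107760470-107760719 for Csf1 (minus).
Rsad2: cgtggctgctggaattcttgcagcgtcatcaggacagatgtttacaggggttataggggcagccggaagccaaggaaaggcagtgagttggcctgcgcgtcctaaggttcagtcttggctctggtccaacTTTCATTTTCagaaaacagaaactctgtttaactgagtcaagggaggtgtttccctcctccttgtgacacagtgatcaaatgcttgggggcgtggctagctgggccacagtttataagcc
Ifit1: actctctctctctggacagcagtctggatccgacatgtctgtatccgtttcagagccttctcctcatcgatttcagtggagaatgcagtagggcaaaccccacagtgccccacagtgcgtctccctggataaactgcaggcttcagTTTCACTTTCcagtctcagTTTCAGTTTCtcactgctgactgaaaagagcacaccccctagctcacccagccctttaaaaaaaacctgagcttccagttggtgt
Gbp5: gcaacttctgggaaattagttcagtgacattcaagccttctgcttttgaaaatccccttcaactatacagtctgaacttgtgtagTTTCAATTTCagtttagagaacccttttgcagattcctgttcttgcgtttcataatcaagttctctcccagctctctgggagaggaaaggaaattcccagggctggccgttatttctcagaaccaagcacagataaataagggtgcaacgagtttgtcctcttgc
Irgm1: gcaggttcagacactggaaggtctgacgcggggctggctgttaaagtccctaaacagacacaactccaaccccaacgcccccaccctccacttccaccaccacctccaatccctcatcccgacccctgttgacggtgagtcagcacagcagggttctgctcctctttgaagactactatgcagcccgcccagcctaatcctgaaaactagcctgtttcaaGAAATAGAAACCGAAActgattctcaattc
Csf1: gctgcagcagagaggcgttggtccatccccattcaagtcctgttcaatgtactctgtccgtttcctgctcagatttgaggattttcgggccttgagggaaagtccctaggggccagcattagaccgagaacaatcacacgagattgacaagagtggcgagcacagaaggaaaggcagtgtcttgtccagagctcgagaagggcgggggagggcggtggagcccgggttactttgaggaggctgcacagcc
The match in Rsad2 starts at -120 from the start site, those in Ifit1 at -104 and -85, that in Gbp5 at -165, and those in Irgm1, which overlap each other, at -30 and -24. No match lies in the windows of Csf1, Prdm1 or Cmpk2. Of 27025 promoters listed by RefSeq, 3.05% held the ISRE core, as did 2.8% of the 8401 found for tested genes. It was present in 22 of the 69 found for all tested effectors, called or not (31.9%), and in 21 of the 57 for the effectors called lower (36.8%). The core was also in 7 of 7 for the GTPases called lower, in 75 of 1420 for all genes called lower (5.28%) and in 27 of 1237 for genes called higher (2.18%). None of the 15 found for sterol synthesis genes called lower held it. The GAS motif, TTCNNNGAA, bound by STAT dimers, was in 7.14% of all promoters, 13% of those of all tested effectors, 12.3% of those of effectors called lower and 4 of 7 GTPase promoters. A match is a run of letters and not a measured binding site.

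**Figure D2:**
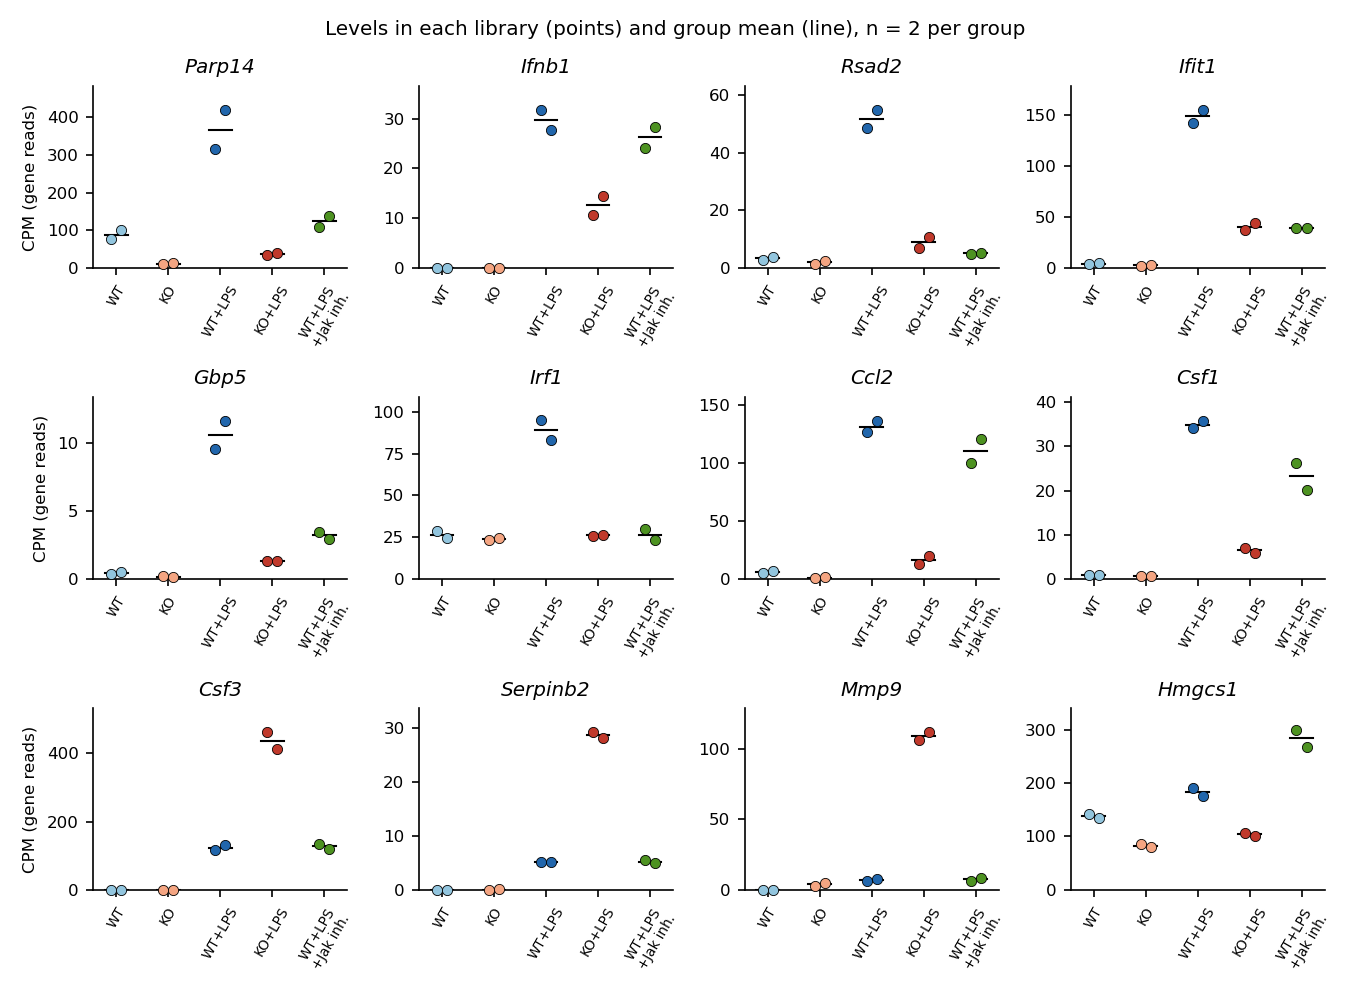
CPM of 12 genes in each library (points) with the mean of 2 (line), for untreated WT and KO cells, WT and KO cells with LPS, and WT cells with LPS and the Jak inhibitor. Each axis starts at 0. For Rsad2, Ifit1 and Irf1 the KO and inhibitor libraries both lie far below WT with LPS, whereas for Ccl2 and Ifnb1 the inhibitor libraries stay near WT.

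Several genes of the interferon loop were lower, among them that of the ligand. Ifnb1 encodes interferon-β and was at or below 0.052 CPM in every untreated library. With LPS it read 31.7 and 27.7 CPM in WT against 10.7 and 14.4 CPM in KO cells, so both KO libraries were below both WT ones (difference -1.19, SE 0.12, limma adjusted p = 3.3e-06). Groups without overlap were found in 49.4% of all tested genes. Of 17 genes of type I interferon signalling tested, 9 were lower and none was higher (14.9% of all genes were), with a median of -0.31. Without the block 7 were lower. The receptor genes Ifnar1 (-0.06) and Ifnar2 (-0.10), the kinase genes Jak1 (-0.07), Tyk2 (0.06) and Tbk1 (-0.03) and the factor gene Irf3 (-0.01) were not called. Ticam2, an adaptor of TLR4, was lower by 0.31. Stat2, a subunit of the factor that binds ISREs, read 36.2 and 44.1 CPM in WT against 14.9 and 18.8 CPM in KO cells (-1.21, SE 0.067), and Irf7, which amplifies interferon transcription, 72.0 and 87.5 against 29.4 and 40.8 CPM (-1.17, SE 0.068). Socs1, a feedback inhibitor of Jak kinases, read 2.74 and 2.54 against 1.42 and 1.38 CPM (-0.60, SE 0.12). Irf9, the DNA-binding partner of Stat2, was lower by 0.37 (90.4 and 91.5 against 64.6 and 75.8 CPM), a call lost without the block (adjusted p = 0.17).

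Irf1 had the largest difference of 9 tested genes in the list of interferon regulatory factors. In this list 3 genes were lower, and Irf2bp2 (0.44) was higher with the block alone. Irf2bp2 encodes a protein that binds IRF2 and is not itself such a factor, so no tested factor was called higher. Irf1 encodes a factor induced by interferon and NF-kB. The levels were 95.4 and 82.9 CPM in WT against 25.7 and 26.3 CPM in KO cells with LPS. Without LPS they were 28.4 and 24.4 CPM in WT against 23.4 and 24.2 CPM in KO cells. Only the WT libraries with LPS stand out among these 8. Relative to all gene reads LPS changed most genes in both genotypes, with 80.8% called in WT (62.8% lower) and 80.5% in KO cells (62.2% lower). It changed Irf1 by 1.72 in WT cells (SE 0.085) and by 0.12 in KO cells (limma adjusted p = 0.19), and the difference after LPS was -1.74. Irf8, which specifies myeloid cells, read 55.6 and 46.2 against 58.0 and 54.3 CPM (0.14, not called).

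Among sensors of viral nucleic acids, 18 of 21 tested genes were lower and 1 was higher, with a median of -0.67. Without the block 15 were lower and none higher. Ddx58, which encodes the RNA sensor RIG-I, read 94.2 and 117 CPM in WT against 41.0 and 53.4 CPM in KO cells (-1.15, SE 0.051). Tlr3, the endosomal receptor for double-stranded RNA, read 6.40 and 7.66 against 1.95 and 2.01 CPM (-1.42, SE 0.14), and Zbp1, a Z-form nucleic acid sensor, 6.15 and 7.48 against 1.86 and 3.02 CPM (-1.20, SE 0.10). The groups did not overlap in these 3, as in 49.4% of all genes. Ifih1, encoding the RNA sensor MDA5, was lower by 0.53, from a far higher level (396 and 422 against 279 and 288 CPM). The adaptor genes Mavs (-0.20) and Tmem173 (0.03), the latter encoding STING, were not called. Tlr8 was higher, at 2.30 and 1.41 against 3.92 and 2.72 CPM (0.60), a call lost without the block (adjusted p = 0.37).

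**Figure D3:**
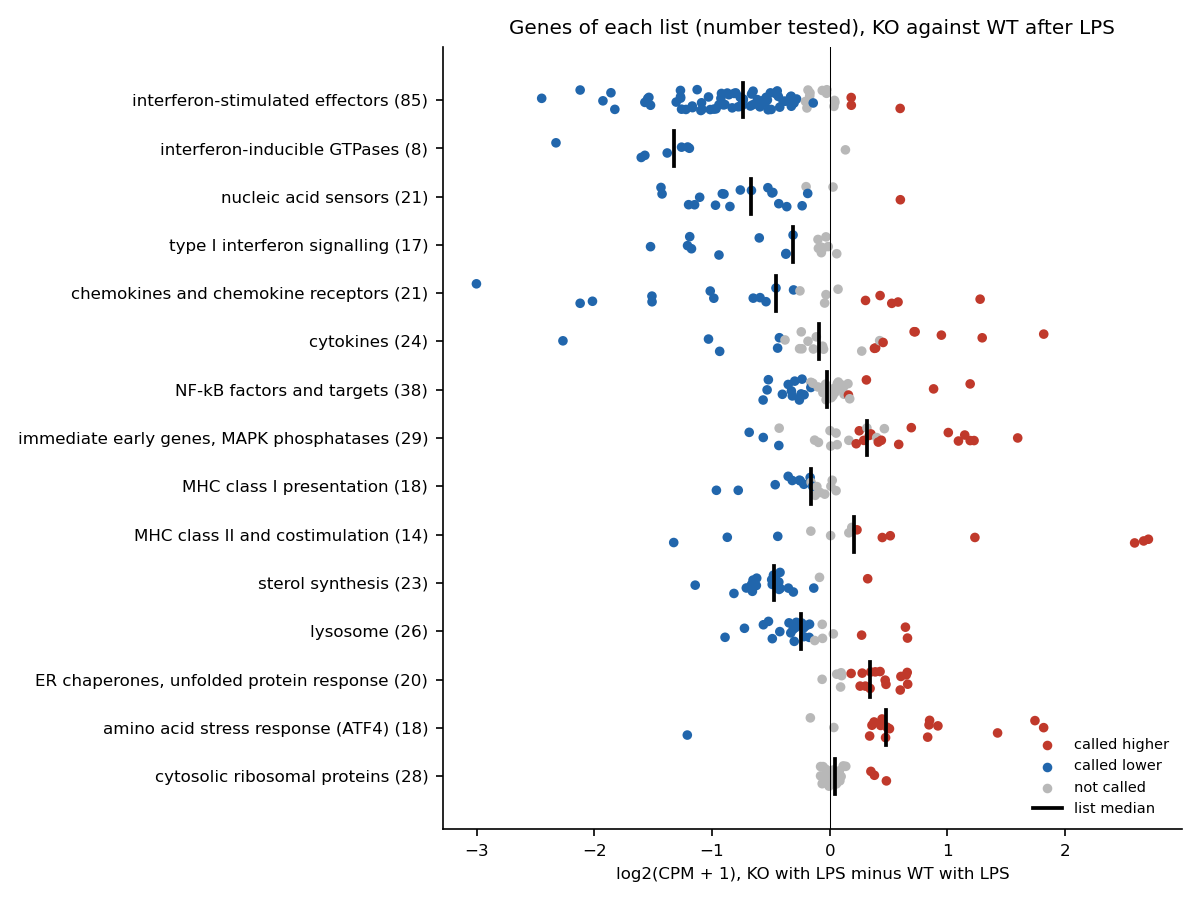
Fitted difference of log2(CPM + 1), KO with LPS minus WT with LPS, for every tested gene of 15 gene lists other than Parp14 (points, coloured by call) and the median of each list (bar); numbers in brackets are genes tested. Interferon effectors, GTPases and sensors lie mostly left of 0, with medians of -0.73, -1.32 and -0.67, as do sterol genes (-0.47), while chaperone (0.35) and ATF4 genes (0.48) lie to the right.

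Chemokine genes were lower more often than higher. Of 21 chemokine and chemokine receptor genes tested, 12 were lower and 5 higher (10 and 4 without the block), with a median of -0.46. Ccl2, the main attractant of monocytes, read 127 and 136 CPM in WT against 12.4 and 19.3 CPM in KO cells (difference -3.00, SE 0.12, limma adjusted p = 2.6e-10), and the WT mean was 8.27 times the KO mean. Ccl7, its neighbour on chromosome 11, read 4.64 and 4.56 against 0.31 and 0.47 CPM (-2.02, SE 0.11). Ccl5, an attractant of T cells, read 216 and 260 against 74.6 and 91.5 CPM (-1.51, SE 0.079), and Cx3cl1, the membrane-bound ligand fractalkine, 6.68 and 5.66 against 2.03 and 1.08 CPM (-1.51, SE 0.14). KO libraries lay below WT libraries in these 4 genes, beside 49.4% of all genes without overlap in either direction. The tested interferon-induced ligands of CXCR3 were lower too, with Cxcl10 at 1036 and 1162 against 515 and 571 CPM (-1.02, SE 0.11) and Cxcl11 at 11.4 and 11.5 against 1.42 and 2.39 CPM (-2.12, SE 0.13). Cxcl9, another such ligand, was too low to test (0.44 and 0.24 against 0.14 and 0.30 CPM). In the other direction Cxcl2, a neutrophil attractant, was already at 2348 and 2302 CPM in WT cells and reached 3105 and 3149 CPM in KO cells (0.43, SE 0.045). The other lower members ranged from -0.98 (Ccrl2) to -0.31 (Cx3cr1), and Cxcl16 was higher by 0.30. The receptor gene Ccr2 read 4.62 and 2.88 against 13.3 and 7.94 CPM (1.28, SE 0.16).

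Cytokine genes showed differences in both directions, with 8 of 24 tested higher, 5 lower (7 and 4 without the block) and a median of -0.09. Among all genes 14.9% were higher and 16.7% lower. Csf3, which encodes the granulocyte growth factor G-CSF, read 116 and 131 CPM in WT against 462 and 413 CPM in KO cells (difference 1.82, SE 0.084, limma adjusted p = 1.5e-09). Csf1, the growth factor of macrophages, went the other way, from 34.1 and 35.7 CPM in WT to 7.01 and 5.95 CPM in KO cells (-2.27, SE 0.11). Both genes separated the 4 libraries by genotype, as did 49.4% of all tested genes in either direction. The ratio of means was 3.54-fold upward for Csf3 and 5.39-fold downward for Csf1. Of the gp130 ligands, Osm read 11.5 and 10.0 CPM in WT against 30.6 and 25.2 CPM in KO cells (1.29, SE 0.099), and Lif 806 and 805 against 1592 and 1518 CPM (0.95, SE 0.067). Il10, an anti-inflammatory cytokine, was scarce and higher, at 0.94 and 1.05 against 2.17 and 2.39 CPM (0.72, SE 0.11). Il15 (-1.03), Tnfsf15 (-0.94) and Il27 (-0.43) were lower. The classical early cytokines were not called. Tnf read 4609 and 4424 CPM in WT against 4416 and 4292 CPM in KO cells (-0.05, SE 0.072). Il1b read 3283 and 2750 against 2967 and 2598 CPM (-0.11, SE 0.13). Il6 read 34.1 and 24.6 against 45.2 and 34.0 CPM (0.42, SE 0.16, limma adjusted p = 0.054), and the count-based tests called it higher.

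Upstream of these genes, the TLR4 receptor and adaptor list held 10 lower and 4 higher genes of 27 tested, with a median of -0.08. Without the block 6 were lower and 3 higher. Among all genes 16.7% were lower and 14.9% higher with the block, so the count of higher genes was near the share of all genes. Myd88, the adaptor of most Toll-like receptors, read 153 and 166 CPM in WT against 122 and 127 CPM in KO cells (-0.35, SE 0.044), and Cd14, the LPS co-receptor, 2004 and 1941 against 2427 and 2424 CPM (0.30, SE 0.059). Tlr4 read 20.9 and 14.7 against 34.7 and 23.7 CPM (0.68, SE 0.057), a call lost without the block (adjusted p = 0.13). Among 38 NF-kB factors and targets 13 were lower and 4 higher, and without the block 5 and 3. With the block the share of higher genes was not above the 14.9% of all genes. Their median was -0.02. Nfkb1 (0.07) and Nfkbia (0.17), a subunit and the main inhibitor, were not called. Tlr2, the lipoprotein receptor, was lower, at 1291 and 1210 against 869 and 819 CPM (-0.57, SE 0.047). The MAP kinase-linked gene Ier3 was higher, at 166 and 163 against 407 and 350 CPM (1.19, SE 0.073).

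Immediate early genes and MAP kinase phosphatases were higher more often than lower. Of 29 tested, 15 were higher and 3 lower, with a median of 0.32, and without the block 9 and 1. Dusp6, a phosphatase of ERK and itself an ERK target, read 3.83 and 4.39 CPM in WT against 14.2 and 14.7 CPM in KO cells (1.60, SE 0.15). Dusp4 read 78.7 and 77.4 against 200 and 169 CPM (1.23, SE 0.13), and Jun 7.45 and 5.36 against 20.0 and 11.5 CPM (1.15, SE 0.098). Fosl1, an AP-1 subunit, read 3.94 and 3.10 against 11.1 and 6.65 CPM (1.09, SE 0.18). In these 4 genes both KO libraries were above both WT ones (49.4% of all genes had no overlap). Fos (-0.13), Egr1 (0.00) and Egr2 (-0.43) were not called, and Dusp1, the phosphatase of p38 and JNK, was lower (187 and 157 against 118 and 114 CPM, -0.56).

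Serpinb2, an inhibitor of plasminogen activators that is induced in activated macrophages, read 5.23 and 5.14 CPM in WT against 29.2 and 28.1 CPM in KO cells (difference 2.26, SE 0.094, limma adjusted p = 4.5e-10). The KO mean was 5.52 times the WT mean. Of 10 genes for nitric oxide, arginine and itaconate enzymes 5 were higher and 1 lower (4 and 1 without the block), with a median of 0.26. Nos2, the inducible nitric oxide synthase, read 9.72 and 15.4 CPM in WT against 21.4 and 25.6 CPM in KO cells (0.88, SE 0.15). Arg2, the mitochondrial arginase, read 1.88 and 1.32 against 6.04 and 5.41 CPM (1.38, SE 0.11), and Odc1, the first enzyme of polyamine synthesis, 925 and 1179 against 1492 and 2152 CPM (0.78, SE 0.057). Irg1, which makes itaconate, was lower, at 3319 and 3296 against 2767 and 2617 CPM (-0.30). Jak-STAT factors and feedback genes split evenly, with 7 higher and 6 lower of 27 and a median of 0.01 (4 and 5 without the block). Among all genes 14.9% were higher and 16.7% lower. Cish, a STAT5 target and feedback inhibitor, read 18.8 and 21.1 against 34.9 and 32.1 CPM (0.72, SE 0.11), while Socs3, a feedback inhibitor of gp130 receptors, had overlapping levels (650 and 592 against 681 and 536 CPM, -0.04). Of 19 regulators of mRNA decay together with tissue factor, 3 were higher and 3 lower (median 0.02), near the 14.9% and 16.7% of all genes, and without the block 1 and 0. Zfp36, which speeds decay of cytokine mRNA, was not called (0.04). F3, tissue factor, read 1.18 and 1.05 against 1.75 and 2.25 CPM (0.50), a call that DESeq2 did not make.

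Antigen presentation genes differed by class. Of 18 class I pathway genes 10 were lower and none higher, with a median of -0.16, and 6 without the block. Tap1, a subunit of the peptide transporter, read 30.8 and 34.2 CPM in WT against 15.5 and 16.8 CPM in KO cells (-0.96, SE 0.067). Of 14 class II and costimulation genes 7 were higher and 3 lower, 5 and 1 without the block, with a median of 0.21. The class II genes H2-Eb1, H2-Ab1 and H2-Aa on chromosome 17 were almost silent in WT cells. H2-Eb1 read 0.18 and 0.17 CPM in WT against 9.77 and 4.45 CPM in KO cells (2.71, SE 0.17), H2-Ab1 0.15 and 0.22 against 9.68 and 4.31 CPM (2.67, SE 0.19), and H2-Aa 0.35 and 0.15 against 10.3 and 3.96 CPM (2.59, SE 0.19). The KO libraries were above WT in each gene, beside 49.4% of all genes without overlap in either direction. They differed from each other more than in most genes, replicate 1 being the higher. The class II transactivator Ciita (0.16) was not called after LPS. In untreated cells the differences were 1.15 for Ciita, 2.35 for H2-Eb1, 2.27 for H2-Ab1 and 2.36 for H2-Aa. The 2 Ciita differences also differed from each other (limma adjusted p = 0.029). After LPS Cd86, a ligand of CD28, was higher (4.47 and 3.29 against 12.99 and 8.26 CPM, 1.23), and Cd274, which encodes PD-L1, was lower (16.6 and 16.4 against 8.35 and 8.80 CPM, -0.87). Cd28 was lower (-1.33), a call lost without the block (adjusted p = 0.12).

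Sterol synthesis genes were lower almost throughout. Of 23 tested, 21 were called lower and 1 higher, with a median of -0.47, and without the block 20 and 0. Hmgcs1, an early enzyme of the pathway, read 191 and 175 CPM in WT against 106 and 101 CPM in KO cells (-0.81, SE 0.042, limma adjusted p = 3.7e-09). Nsdhl, a later enzyme, read 45.5 and 46.8 against 29.2 and 28.3 CPM (-0.67, SE 0.054), and Insig1, a sterol-regulated retention protein, 142 and 135 against 99.3 and 96.6 CPM (-0.49, SE 0.046). Srebf2, the gene of the pathway's transcription factor, was lower by 0.14, a call lost without the block (adjusted p = 0.18). Fatty acid synthesis genes were lower in 9 of 14 cases, 4 without the block, with a median of -0.18 and Elovl6, a fatty acid elongase, at -0.48. Lysosome genes were lower in 19 of 26 cases and higher in 3 (10 and 3 without the block), with a median of -0.25. Tfec, a factor of the MiT family, read 42.9 and 33.7 CPM in WT against 22.3 and 18.1 CPM in KO cells (-0.89, SE 0.093), Grn, which encodes progranulin, 435 and 485 against 282 and 273 CPM (-0.72, SE 0.055), and the protease gene Ctsb 2402 and 2489 against 1575 and 1737 CPM (-0.56, SE 0.050). Ctsl (0.66) and Ctsc (0.64), also proteases, were higher.

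Stress genes of the ATF4 pathway, which respond to amino acid shortage, were higher in 15 of 18 cases and lower in 1 (13 and 1 without the block), with a median of 0.48. Trib3, a pseudokinase, read 1.204 and 0.78 CPM in WT against 7.18 and 4.38 CPM in KO cells (1.74, SE 0.13), and Atf5, a transcription factor of the response, 15 and 13.2 against 44.3 and 35.2 CPM (1.43, SE 0.068). Chac1, which degrades glutathione, read 2.39 and 0.90 against 9.82 and 6.39 CPM (1.82, SE 0.14), and Asns, asparagine synthetase, 117 and 116 against 218 and 202 CPM (0.84, SE 0.048). The groups did not overlap in these 4 genes, which holds for 49.4% of all genes. The exception was Slc7a11, the cystine importer, which was lower (292 and 263 against 120 and 118 CPM, -1.21, SE 0.062). Chaperones and other genes of the unfolded protein response were higher in 15 of 20 cases and lower in none (11 and none without the block), with a median of 0.35. Hyou1, a chaperone of the endoplasmic reticulum, read 443 and 518 against 682 and 844 CPM (0.66, SE 0.045), Sdf2l1 57.9 and 58.0 against 95.5 and 88.7 CPM (0.66, SE 0.057), and Hspa5, the chaperone BiP, 2770 and 2761 against 3420 and 3622 CPM (0.35, SE 0.049). Xbp1 (0.09), a transcription factor of the response, was not called.

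Macrophage identity genes moved in both directions, with 10 of 29 higher and 13 lower, 5 and 8 without the block, and a median of -0.13. Gpnmb, a transmembrane glycoprotein of phagocytes, read 355 and 305 CPM in WT against 45.8 and 53.9 CPM in KO cells (-2.70, SE 0.17), and Adgre1, which encodes F4/80, 188 and 163 against 76.4 and 64.7 CPM (-1.30, SE 0.044). Maf, a macrophage transcription factor, read 0.42 and 0.56 against 2.59 and 2.41 CPM (1.23, SE 0.13). Osteoclast markers and matrix proteases had 5 higher and 5 lower genes of 13 (median -0.11), 2 and 3 without the block. Both lists stand beside 14.9% of all genes higher and 16.7% lower. Mmp9, gelatinase B, read 6 and 7.63 against 107 and 112 CPM (3.83, SE 0.14). Acp5 (-1.10) and Atp6v0d2 (-1.28), genes of bone-resorbing cells, were lower, while Dcstamp (0.55) and Ocstamp (0.42), osteoclast markers as well, were higher.

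The largest differences included genes outside these lists. They were taken among genes of 5 CPM or more on average in the higher group and without overlap between the groups, leaving out predicted-gene symbols. Tbx3, a T-box transcription factor on chromosome 5 (chr5:119670669-119684724), had 0 reads in both WT libraries with LPS and 21.2 and 18.6 CPM in KO libraries. With a floor of 3 reads over the WT group it was at least 574-fold higher in KO cells (limma adjusted p = 1.6e-12), and edgeR called it too, whereas DESeq2 did not (adjusted p = 0.069). Slpi, a secreted inhibitor of neutrophil proteases, read 1.45 and 1.29 against 36.2 and 31.9 CPM (3.88, SE 0.092), and Nid2, a basement membrane protein, 0.044 and 0.049 against 9.29 and 8.52 CPM (3.24, SE 0.10). Hpgd, the enzyme that inactivates prostaglandins, read 0.20 and 0.073 against 11.5 and 5.92 CPM (3.04, SE 0.17). All 4 were close to silent in WT cells with LPS. Dmwd (2.97), H2-Ea-ps (2.88), the scavenger receptor gene Scarf1 (2.82), Afp (2.60), the myosin gene Myo6 (2.59), Rhox5 (2.41) and Trp53i11 (2.39) completed the 15 largest higher, with Mmp9 and the class II genes. Among the 15 largest lower were Ndrg4 (19.7 and 20.2 against 1.64 and 2.22 CPM, -2.84), Plod2, a collagen lysyl hydroxylase (6.92 and 6.65 against 0.53 and 0.37 CPM, -2.43), Cd33, a sialic acid receptor (108 and 77.9 against 30.2 and 18.1 CPM, -1.93), and Mamld1 (-1.85). Tmeff1 (6.11 and 6.31 against 0.17 and 0.12 CPM, -2.66) and Msantd3 (8.63 and 7.05 against 0.75 and 0.84 CPM, -2.29) lie on the same strand of chromosome 4 (chr4:48585174-48663131 and chr4:48539935-48561919). The rest were Parp14, Ccl2, Rsad2, Gbp5, Csf1, Cxcl11, Cmpk2, Ifit1 and Gpnmb.

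To ask which of these differences were present without LPS, the untreated KO and WT libraries were compared in the same fit. There 1189 genes were called higher (10.9%) and 1496 lower (13.7%) in KO cells. Of the calls after LPS 54.92% were called the same way untreated, as were 70.32% of the untreated calls after LPS, and 27 genes were called in opposite directions. Across genes the differences with and without LPS had a Pearson r of 0.80 and a Spearman rho of 0.69, from libraries of their own. Genes share libraries and are not independent. Of the genes at least 2-fold higher after LPS, 87 of 101 were called higher untreated, and of those at least 2-fold lower, 97 of 117 lower. Tbx3 was at 0 reads in untreated WT cells too and at 60.4 and 50.1 CPM in untreated KO cells, and Hpgd went from 2.16 and 0.92 CPM to 201 and 119 CPM. Gpnmb (569 and 387 against 53.4 and 63.4 CPM), Ndrg4 (-3.30), Tmeff1 (-2.38) and Plod2 (-2.26) were lower without LPS too. Gene groups outside the interferon system were also called in untreated cells. Of the sterol genes 20 of 23 were lower untreated (median -0.38), of the lysosome genes 21 of 26 (median -0.29), and of the chaperone genes 18 of 20 were higher (median 0.46). ATF4 genes were higher in 10 of 18 cases (median 0.23). Class II and costimulation genes were higher in 9 of 14 cases and lower in 3 (median 0.60). Interferon effectors were lower in 39 of 85 cases and higher in 7, with a median of -0.19.

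**Figure D4:**
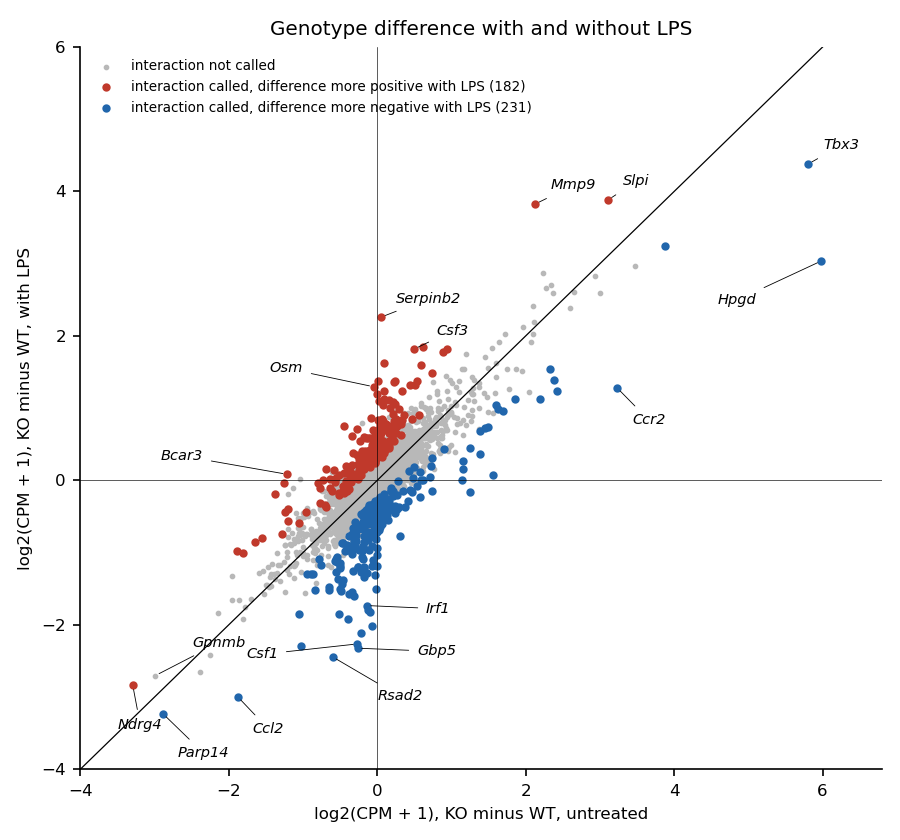
Difference of log2(CPM + 1) between KO and WT cells, untreated (x axis) and with LPS (y axis), for the 10899 tested genes; coloured points have a called interaction of genotype and LPS. Tbx3, Hpgd, Ndrg4 and Gpnmb lie far from 0 on both axes, while Rsad2, Gbp5, Csf1 and Irf1 lie much further below 0 on the y axis than on the x axis.

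The difference between these 2 differences, the interaction, was tested directly. It was called in 182 genes (1.67%) toward higher and 231 genes (2.12%) toward lower levels with LPS, 3.79% in all, and without the block in 14 and 31. Of the 85 interferon effectors 49 had a called interaction toward lower levels and none toward higher (42 and none in edgeR), and likewise 7 of 8 GTPases (4 in edgeR) and 10 of 21 sensors (9 in edgeR). No sterol, lysosome or chaperone gene had one in limma or edgeR. Of 18 ATF4 genes 6 had a called interaction toward higher levels and 1 toward lower (5 and 1 in edgeR). Of 29 immediate early genes and MAP kinase phosphatases 5 had one toward higher levels and none toward lower (6 and none in edgeR). For genes with almost no reads before LPS the interaction on the log2(CPM + 1) scale largely restates the difference after LPS, and a count model answers differently. Irf1 (-1.59 in limma, -1.64 in edgeR), Rsad2 (-1.85 and -1.73), Cmpk2 (-1.53 and -1.62), Ifit1 (-1.35 and -1.22), Ifit2 (-1.73 and -1.86) and Csf1 (-1.997 and -1.79) were called by both tools. So were Osm (1.35 and 1.45), Arg2 (1.38 and 1.81), Ier3 (1.195 and 1.19), Odc1 (0.66 and 0.65) and Slc7a11 (-0.71 and -0.72). Ccl2 (-1.12 in limma), Ccl5 (-1.01), Ccl7 (-1.95) and Ifnb1 (-1.19) were called in limma alone, with adjusted p of 0.77, 0.27, 0.82 and 0.85 in edgeR. Among chemokines 9 interactions toward lower levels in limma stood against 1 in edgeR. Serpinb2 (2.21), Mmp9 (1.70) and Csf3 (1.32) had positive interactions in limma and negative ones, not called, in edgeR (-1.14, -1.41 and -0.09). In all 3 genes the levels of untreated WT cells were near 0, where the 2 scales differ most. Cd40, a costimulatory receptor, differed the other way round. It was higher in untreated KO cells (3.27 and 3.40 against 9.83 and 8.78 CPM) and not called after LPS (110 and 137 against 107 and 112 CPM), with an interaction of -1.41 in limma and -1.67 in edgeR.

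WT cells given LPS together with the Jak inhibitor were set beside the KO cells, since Jak kinases carry the interferon signal. That comparison uses the same WT libraries with LPS as the KO comparison, so the values are set side by side and no overlap is counted. With the inhibitor 183 genes were called higher (1.68%) and 263 lower (2.41%), 4.09% in all. Whether a gene differed between KO cells with LPS and WT cells with LPS and inhibitor was tested directly, a contrast added after the data had been seen in which 33.1% of genes were called. Interferon effectors were lower in 66 of 85 cases with the inhibitor (median -0.73), GTPases in 8 of 8 (median -1.45) and sensors in 15 of 21 (median -0.98). Parp14 itself differed by -1.56 between WT cells with LPS and inhibitor and WT cells with LPS. Ifit1 read 39.5 and 39.0 CPM with the inhibitor, beside 37.1 and 43.7 CPM in KO cells, with a direct difference of 0.04 (SE 0.080). Irf1 read 29.9 and 23.02 CPM beside 25.7 and 26.3 CPM (direct difference -0.01, SE 0.085). Mx2 was lower with the inhibitor, at 4.81 and 6.41 CPM, than in KO cells (direct difference 1.86, SE 0.10), and Irgm1 likewise (29.1 and 35.6 CPM, 1.00, SE 0.060). Oasl1, level with WT in KO cells, read 299 and 325 CPM with the inhibitor (direct difference 0.80, SE 0.081).

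Other genes were low in KO cells and near the WT level with the inhibitor. Ccl2 read 100 and 121 CPM with the inhibitor, beside 12.4 and 19.3 CPM in KO cells (direct difference -2.75, SE 0.12, limma adjusted p = 4.9e-10). Ccl7 (-2.01, SE 0.11), Ccl5 (-1.46, SE 0.079), Cx3cl1 (-1.62, SE 0.14) and Prdm1 (-1.77, SE 0.10) also differed directly, and none of the 5 was called in the comparison of inhibitor and WT. Prdm1 encodes the transcriptional repressor Blimp-1 and read 30.9 and 28.1 CPM in WT libraries, 31.5 and 26.6 CPM with the inhibitor, and 7.87 and 7.65 CPM in the KO. Ifnb1, which lies upstream of Jak kinases, read 24.2 and 28.4 CPM with the inhibitor (direct difference -1.02, SE 0.12). Isg15 read 167 and 171 CPM with the inhibitor (direct difference -1.004, SE 0.12). Csf1 lay between, at 26.3 and 20.2 CPM (-1.69, SE 0.11), and was lower than in WT with the inhibitor too (-0.58, adjusted p = 0.0062). Csf3 (135 and 119 CPM) and Serpinb2 (5.58 and 4.88 CPM) were not called with the inhibitor and had direct differences of 1.78 and 2.25. Sterol synthesis genes differed in sign, with 17 of 23 higher and none lower with the inhibitor (median 0.28), and Hmgcs1 at 298 and 268 CPM beside 106 and 101 CPM in KO cells (direct difference -1.44, SE 0.042).

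**Figure D5:**
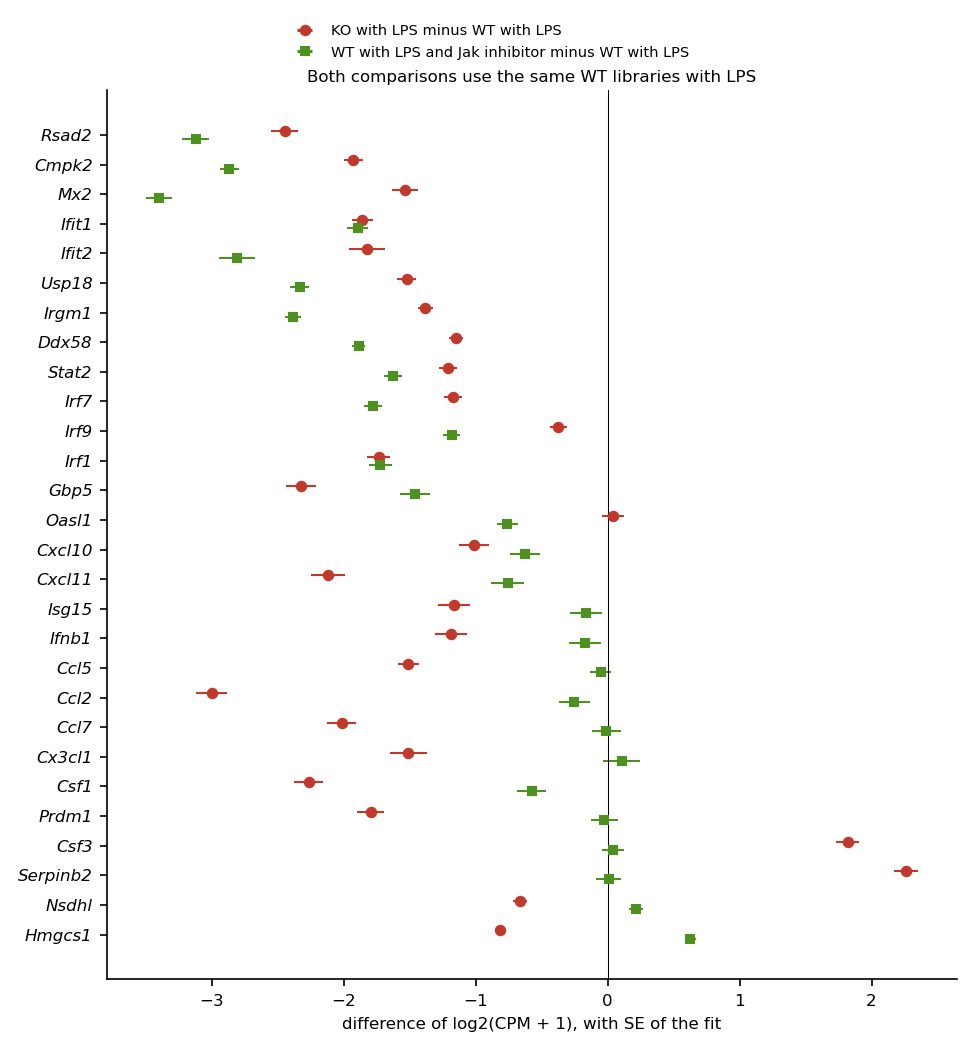
Fitted difference of log2(CPM + 1) from WT cells with LPS for 28 genes, in KO cells with LPS (circles) and in WT cells with LPS and the Jak inhibitor (squares), with bars for the SE of the fit. Rsad2, Ifit1 and Irf1 lie left of 0 in both, Ccl2, Ccl7, Ccl5, Cx3cl1 and Prdm1 are called lower in KO cells alone, and Nsdhl and Hmgcs1 lie on opposite sides of 0.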

How the data were processed

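RNA of RAW264.7 cells was sequenced in 12 libraries, 2 in each of 6 groups set by the genotype and treatment in the labels. The authors deposited one table of CPM per gene, read counts scaled to a fixed total. Per the labels' protocols RNA was extracted with a Maxwell kit and libraries were made with a TruSeq RNA kit, and per the submitters' processing notes the tools were TopHat2 2.1.0, HTSeq and edgeR with build mm10 (GRCm38). No source used here states the annotation or the strand setting. The deposited CPM were scaled over all alignments, of which 5 summary lines held 35.9% to 41.1%, reads with several positions alone 28.6% to 34.9%. These lines were removed and each column was rescaled to its gene reads. Whole reads were recovered from the CPM for at least 99.97% of values in each library, within 0.02 reads. The table also has 4 per-sample columns that match no label, which were not used.

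The test was limma 3.58.1 (R 4.3.3) with a mean trend on log2(CPM + 1), for the 10899 of 24421 genes reaching 1 CPM in 2 or more libraries, with 6 group means and the replicate number as a block (5 residual degrees of freedom). P-values were adjusted by the Benjamini-Hochberg method over all tested genes, and every adjusted p is from this fit unless another tool is named. Same-numbered libraries deviated together in all 15 pairs of groups (correlations of 0.468 to 0.737, and 0.652 for WT and KO with LPS), and the numbers come from the labels. Alternatives were other scalings, pseudocounts, filters and library sets, no block, and edgeR 4.0.16 and DESeq2 1.42.0 on the recovered reads.

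Genes were named as the 15 largest called differences in each direction with 5 CPM or more on average in the higher group, the up to 4 largest called members of each list in each direction, the 8 largest interactions in each direction, a set followed whatever its values, and uncalled list members as examples. The 15 largest were taken only among genes whose libraries did not overlap between the 2 groups, so their separation was fixed by the choice. Interactions were called ones, with 5 CPM or more on average in the highest group and the same sign in both replicates. Predicted-gene and date-like symbols were left out of the largest differences and interactions. Not every gene the rule names is given. Asns, Ccrl2, Cd40, Cx3cr1, Cxcl16, Fosl1, Gbp2, Hspa5, Ifih1, Ifit3, Igtp, Il10, Il27, Insig1, Irgm2, Isg15, Mx2, Parp1, Parp12, Srebf2, Ticam2 and Tiparp are list members outside the rule, chosen after their values were seen. The comparison and the lists were chosen with earlier results of these data known. Gene positions are from GENCODE M21 (GRCm38), and promoters are from RefSeq (GRCm38.p6).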

Additional observations from a re-analysis of the deposited data

Results flagged for a closer look

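The interaction of genotype and LPS, the difference between the KO minus WT differences with and without LPS, was more positive with LPS in 182 genes and more negative in 231 genes in limma. The 8 largest of each sign are given as values of log2(CPM + 1), among called genes of 5 CPM or more on average in their highest group. Genes whose replicates differed in sign and predicted-gene symbols were left out. Toward higher levels they were Serpinb2 (2.21), Mmp9 (1.70), Arg2 (1.38), Osm (1.35), Csf3 (1.32), Bcar3 (1.30), Tnfrsf8 (1.24) and Cxcr4 (1.21). Toward lower levels they were Hpgd (-2.94), Gbp5 (-2.06), Csf1 (-1.997), Ccr2 (-1.96), Cxcl11 (-1.90), Rsad2 (-1.85), Ifit2 (-1.73) and Prdm1 (-1.67). Hpgd and Ccr2 were higher in KO cells under both conditions, and by less with LPS. Arg2, Bcar3, Ccr2, Csf1, Ifit2, Osm and Rsad2 were called in edgeR and DESeq2 as well. Serpinb2, Mmp9 and Csf3 changed sign in both, and Prdm1, Hpgd, Tnfrsf8, Cxcr4 and Gbp5 were called in neither. Cxcl11 was called in DESeq2 (adjusted p = 0.00519) and not in edgeR (adjusted p = 0.055). Without the replicate block the calls of Ccr2, Cxcr4, Hpgd, Mmp9 and Tnfrsf8 were lost.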

How the results depend on the processing

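Without the replicate block 675 genes were higher and 835 lower after LPS, and 14 and 31 interactions were called. CPM as deposited gave 1072 higher genes, and a 2-fold limit 101 higher and 117 lower. Leaving out 1 library gave 993 to 1253 higher and 1282 to 1403 lower genes, with 993 without KO with LPS replicate 1, and 99 to 171 and 133 to 180 interactions. Without a filter on low values 97 interactions toward higher levels were called. edgeR called 1603 higher and 1869 lower genes, sharing 97.56% of the calls, and DESeq2 1233 and 1563. Of 219 named genes 217 kept direction and side of the threshold in edgeR, 203 in DESeq2, 170 without the block and 192 to 198 with 1 library left out. Uncalled differences changed sign with 1 library left out. Bcar3 ranged from -0.0597 (without WT with LPS replicate 2) to 0.2248, Cxcr4 from -0.3294 to 0.2425 (positive without WT with LPS replicate 2, 0.1659, or KO with LPS replicate 1), Socs3 from -0.1979 to 0.1212 (without WT with LPS replicate 2), Tnf from -0.1506 to 0.0452 (positive without WT with LPS replicate 1, or KO with LPS replicate 2, 0.0345), and Zfp36 from -0.032 (without WT with LPS replicate 1) to 0.121, with -0.0155 for CPM as deposited. Interactions changed sign in edgeR and DESeq2 for Serpinb2 (-1.14 and -0.60), Mmp9 (-1.41 and -1.44) and Csf3 (-0.0892 and -0.1116). The cause was not tested. Recovered reads without molecular identifiers cover counting error only, and 2 libraries a group limit every SE.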

Other observations

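The counts of the remaining gene groups after LPS stand beside 14.9% of all genes higher and 16.7% lower in KO cells (6.19% and 7.66% without the replicate block), and many are near these shares. Of 17 prostaglandin and leukotriene genes 3 were higher and 4 lower (median -0.05), and 2 and 2 without the block. Hpgds, the prostaglandin D synthase of blood cells, read 68.6 and 51.7 CPM in WT and 25.1 and 17.9 CPM in KO cells (-1.45, SE 0.058), while Ptgir, the prostacyclin receptor, read 6.11 and 5.63 against 17.1 and 14.6 CPM (1.29, SE 0.078). Of 13 LXR and cholesterol handling genes 3 were higher and 7 lower (median -0.16), 1 and 5 without the block, with Lipa, lysosomal acid lipase, at 391 and 381 against 214 and 195 CPM (-0.92) and Pltp, the phospholipid transfer protein, at 16.7 and 20.2 against 39.3 and 37.8 CPM (1.03, SE 0.070). Of 22 adhesion and matrix genes 4 were higher and 8 lower (median -0.06), 3 and 5 without the block. Among integrin genes Itga6 was higher (1.95 and 2.34 against 8.82 and 13.3 CPM, 1.92), and Itga4 (1639 and 1773 against 948 and 941 CPM, -0.85) and Itgal (-0.79) were lower.

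Of 17 NRF2 genes 3 were higher, with heme oxygenase Hmox1 at 76.5 and 82.5 against 140 and 159 CPM (0.90), and 7 lower (median -0.09), 2 and 5 without the block. Glycolysis and hypoxia genes gave 5 higher and 5 lower of 22 (median 0.02), 3 and 3 without the block, with the glucose transporter gene Slc2a1 at 0.54. Of 27 cell death genes 4 were higher and 8 lower (median -0.02), 2 and 4 without the block. The necroptosis genes Ripk3 (32.4 and 35.9 against 53.2 and 56.0 CPM, 0.66) and Mlkl (12.4 and 12.4 against 7.29 and 8.005 CPM, -0.63) differed in opposite directions. Of 24 DNA replication genes 4 were higher and none lower (median 0.08), and 1 was higher without the block. Of 20 mitosis genes 2 were higher and 1 lower (median -0.06), 1 and 0 without the block. Of 10 heat shock genes 2 were higher and 1 lower (median 0.05), and none was called without the block. Of 28 ribosomal protein genes 3 were higher and none lower (median 0.04), 2 and 0 without the block. Lyz1 read 1754 and 1540 against 4163 and 4174 CPM (1.34), and its near-identical copy makes this value uncertain.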
